A study of Homo sapiens with 16 samples.

Results

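The alcohol and aldehyde dehydrogenases described here are 10 of the 60649 genes in the count table. They are the class I alcohol dehydrogenases ADH1A, ADH1B and ADH1C, the class III enzyme ADH5, the retinaldehyde dehydrogenases ALDH1A1, ALDH1A2 and ALDH1A3, and the aldehyde dehydrogenases ALDH2, ALDH1B1 and ALDH3A2. The set was built around ADH1B, which was selected on its lower level in cells exposed to mitomycin C (MmC). Its levels in the comparisons of MmC are therefore a description without a test, and the other 9 genes were added by family. All 10 were matched by Ensembl identifier and symbol, and 9 passed the count filter. ADH1A did not pass and is given by its counts.

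Poly(A) RNA came from ASC52telo, a single line of adipose-derived mesenchymal stem cells (MSCs) immortalized with telomerase, so that every group shares 1 genetic background. The 4 groups of 4 libraries were young cells without further treatment (MmC-/GDF11-), young cells given growth differentiation factor 11 (MmC-/GDF11+), cells made senescent with MmC (MmC+/GDF11-), and senescent cells given the cytokine (MmC+/GDF11+). MmC, a DNA alkylating agent, was present at 1.5 µg/mL for 18 h. GDF11 was added at 10 ng/mL during the 10 days that followed, and all cells were collected at the end of that time. The comparisons ask how these genes differ between young and senescent MSCs, and whether GDF11 changes them in either state.

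Alcohol dehydrogenases oxidize ethanol, retinol and other alcohols to aldehydes with NAD as the electron acceptor. Aldehyde dehydrogenases oxidize aldehydes to acids, among them acetaldehyde, retinaldehyde and the lipid aldehydes that form when membranes are damaged. Retinaldehyde is turned into retinoic acid, the ligand of nuclear retinoic acid receptors, and enzymes of the CYP26 family degrade it. Class I alcohol dehydrogenases are best known from liver, and ADH1B is also abundant in adipose tissue.

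Libraries held 71275337 to 144204979 counts in total. The summed level of 6 MSC markers (NT5E, THY1, ENG, CD44, ITGB1, PDGFRB) was between 5090 and 6698 CPM, the count scaled to library size, in every library. The summed level of 6 adipocyte markers was between 1.40 and 2.62 CPM and that of 5 epithelial markers between 1.23 and 2.37 CPM. Some lists of other cell types moved with MmC. The sum of 5 haematopoietic markers was 1.72 to 2.83 CPM in young and 2.98 to 5.64 CPM in senescent libraries, and that of 5 hepatocyte markers 0.0278 to 0.161 and 0.246 to 0.472 CPM, with TTR at 0 counts in all libraries. The sum of 5 endothelial markers overlapped, with 47.5 to 82.4 CPM in young and 54.4 to 111 CPM in senescent libraries. Without GDF11, 3 of the 5 endothelial genes were called higher with MmC and 1 lower, and 2 of 3 tested haematopoietic genes were called higher. Of the 6 MSC markers, 2 were called higher and 1 lower (log2 fold changes from -0.68 to 0.38). The adipocyte sums overlapped, but of 5 tested adipocyte genes 2 were called higher and 1 lower (log2 fold changes from -0.95 to 5.87). Of all genes tested, 22.9% were called higher and 22.4% lower. Whether any marker gene passed the count filter only through the libraries where it was higher was not checked. Calls of these genes are therefore a description. The part of these lists in the results was not tested. Levels below are CPM scaled by the TMM method unless a length is named.

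The class I genes lie side by side on the minus strand of chromosome 4 (GRCh38/hg38). GENCODE places ADH1A at chr4:99276369-99291003, ADH1B at chr4:99304971-99321401 and ADH1C at chr4:99336497-99352746. Their coding sequences of 1125 bases are close copies, with 94.9% identity between ADH1A and ADH1B, 93.9% between ADH1A and ADH1C, and 95.6% between ADH1B and ADH1C. The 250 bases before the transcription start were 81.4%, 80.7% and 80.3% identical in the same pairs. The last 150 bases before each RefSeq start (GRCh38.p14, minus strand, 5′ to 3′) are printed because the 3 genes were all lower in the MmC+ groups. Capitals mark the E-box CACGTG and the retinoic acid receptor half-site GGTTCA, found on either strand.
ADH1A, chr4:99290986-99291135: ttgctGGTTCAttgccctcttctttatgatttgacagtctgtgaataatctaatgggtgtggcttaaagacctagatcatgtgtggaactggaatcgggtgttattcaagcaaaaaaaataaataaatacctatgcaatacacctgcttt
ADH1B, chr4:99321402-99321551: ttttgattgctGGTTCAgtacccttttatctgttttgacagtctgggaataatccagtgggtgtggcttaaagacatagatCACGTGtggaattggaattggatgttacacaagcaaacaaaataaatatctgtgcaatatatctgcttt
ADH1C, chr4:99352747-99352896: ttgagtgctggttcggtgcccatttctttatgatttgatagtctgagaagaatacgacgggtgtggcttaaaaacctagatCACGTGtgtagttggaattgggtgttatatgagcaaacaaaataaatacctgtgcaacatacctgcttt

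The E-box begins at position -69 from the start in both ADH1B and ADH1C and is not in the ADH1A window. It is present in 6.34% of the 35116 promoters of the same 250 bases. The half-site begins at -145 in ADH1A and -139 in ADH1B and is present in 7.16% of promoters. The TATA box TATAAA, present in 10.7% of promoters, was in none of the 3 windows when both strands were searched. Nor was the AP-1 site TGANTCA, which is present in 6.57% of promoters. The C/EBP site TTGCNNAA (9.05% of promoters) and the receptor half-site AGGTCA (12.1% of promoters) were likewise not found. The motifs do not overlap each other, and a match describes letters only.

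In order of replicate number, MmC-/GDF11- had ADH1B levels of 134, 27.6, 30.3 and 9.18 CPM. In MmC-/GDF11+ the values were 51.6, 27.1, 34.0 and 11.3 CPM. Every young library lay above every senescent library, although the young libraries differed widely among themselves. In MmC+/GDF11- the values were 1.27, 0.0932, 0.223 and 2.15 CPM, and in MmC+/GDF11+ they were 1.12, 0.275, 0.170 and 3.19 CPM. The counts behind them summed to 16221 and 9406 in the young groups and to 340 and 433 in the senescent groups. The mean was 50.2 ± 56.5 CPM (SD, n = 4) in MmC-/GDF11- and 0.934 ± 0.967 CPM in MmC+/GDF11-, a ratio of 53.8. With GDF11 the means were 31.002 ± 16.7 and 1.19 ± 1.40 CPM, a ratio of 26.1. The fitted log2 fold changes were -5.74 without and -4.73 with GDF11. In RNA from whole cultures, fewer cells that express a gene and less of its RNA per cell cannot be told apart.

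**Figure D1:**
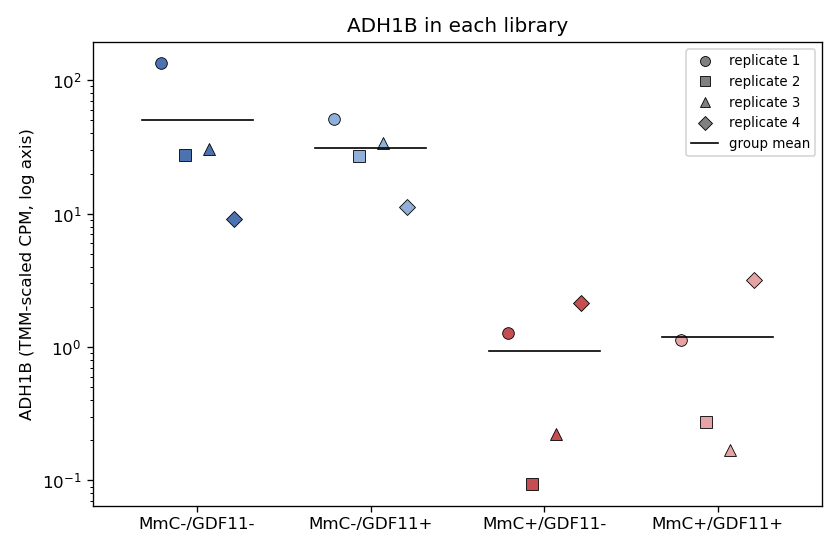
ADH1B in each of the 16 libraries, as TMM-scaled CPM on a log axis, by treatment group. Symbols mark replicate numbers and lines the group means. The lowest young library stands at 9.18 CPM and the highest senescent library at 3.19 CPM.

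Replicate numbers 1 and 4 behaved differently from each other. Replicate 4 was the lowest young library and the highest senescent library with and without GDF11. Between same-numbered libraries without GDF11, ADH1B was 106-fold lower in replicate 1, 296-fold in replicate 2, 136-fold in replicate 3 and 4.26-fold in replicate 4. The SD of log2 CPM within groups, pooled over the 4 groups, was 1.64, higher than that of 99.9% of the tested genes. The log2 fold change without GDF11 was -4.56 without the first MmC-/GDF11- replicate and -6.53 without the last MmC+/GDF11- replicate. With GDF11 it was -6.00 without the last MmC+/GDF11+ replicate.

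ADH1C, which oxidizes ethanol like its neighbours, was scarce in these cells and fell with MmC. Its values were 1.73, 1.58, 1.51 and 1.16 CPM in MmC-/GDF11- and 0.253, 0.431, 0.435 and 0.932 CPM in MmC+/GDF11-. The groups did not overlap, although the senescent replicate 4 came close to the lowest young library. The log2 fold change was -1.54 (SE 0.352, adjusted p = 0.00217 by edgeR's quasi-likelihood test). With GDF11 the levels were 1.11, 1.61, 1.75 and 1.51 CPM against 0.246, 0.610, 0.491 and 0.822 CPM, again without overlap. That log2 fold change was -1.45 (SE 0.350, adjusted p = 0.00301).

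ADH1A had 38, 10, 3 and 3 counts in MmC-/GDF11- and 0, 1, 0 and 1 in MmC+/GDF11-. With GDF11 it had 10, 8, 10 and 2 counts in young cells and 0, 0, 4 and 2 in senescent cells. The ratio of young to senescent counts, corrected for library totals, was 28.2 (95% exact interval 7.43 to 239) without GDF11 and 6.65 (2.72 to 19.5) with it. These intervals cover counting error only, and 38 of the 54 counts of MmC-/GDF11- came from replicate 1. ADH1A also shares 262 exonic bases with the lncRNA ENSG00000246090 on the opposite strand, and whether reads were counted by strand is not given in the sources used here.

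Some short stretches of the class I exons are not unique in the genome. Of the 31-base words within exons, 20.4% of ADH1A, 14.0% of ADH1B and 35.3% of ADH1C occur elsewhere on the primary chromosomes. For words of 100 bases these shares were 0.373%, 0.432% and 4.96%. The shares count any other place, so they do not measure sharing among the class I genes alone. ADH5, outside class I, had 22.4% for words of 31 bases. How reads with several alignments were counted is not given in the sources used here, and the part of such reads in the ADH1C and ADH1A values was not tested.

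ADH5 detoxifies formaldehyde bound to glutathione and reduces S-nitrosoglutathione, and it had the highest level per exon length of the 10 genes. It lies at chr4:99070978-99088801, at the other end of the cluster. Its level was 298, 286, 257 and 244 CPM in MmC-/GDF11- and 197, 141, 158 and 169 CPM in MmC+/GDF11-. All senescent libraries were below all young ones, with a log2 fold change of -0.71 (SE 0.116, adjusted p = 1.59e-04). With GDF11 the values were 298, 273, 288 and 254 CPM against 200, 152, 151 and 173 CPM. The groups were again apart, with a log2 fold change of -0.72 (SE 0.116, adjusted p = 1.31e-04). Between the group means without GDF11, ADH5 was 1.63-fold lower and ADH1C 2.91-fold lower, a difference between the genes that was not tested.

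Between ADH5 and ADH7, the outermost genes of the cluster, the annotation holds ADH4, ADH6, the lncRNA ENSG00000246090 and the pseudogene PCNAP1 besides class I. ADH4, ADH6 and ADH7 passed the count filter only through the young or the senescent libraries, those in which they are higher, so their values are a description without a test. ADH4, a class II enzyme with high activity on retinol, had means of 0.0676 CPM in MmC-/GDF11- and 0.649 CPM in MmC+/GDF11-. Its counts in the 4 libraries of a group summed to 24 and 233, a ratio of young to senescent of 0.108 (95% exact interval 0.0675 to 0.164). ADH6 had means of 0.312 and 0.0855 CPM, from 110 and 31 counts, a ratio of 3.70 (2.47 to 5.71). ADH7, the class IV enzyme known from stomach epithelium, had means of 0.495 and 0.0238 CPM, from 169 and 9 counts, a ratio of 19.6 (10.1 to 43.6). With GDF11 the 3 ratios were 0.128, 4.26 and 12.3. Intervals of count ratios cover counting error only. ENSG00000246090 had means of 3.29 and 2.14 CPM (-0.62, adjusted p = 0.0545), and PCNAP1 had no counts.

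The retinaldehyde dehydrogenases, which make retinoic acid, did not move together. ALDH1A2, the main source of retinoic acid in embryonic mesoderm, rose with MmC. Its values were 0.624, 0.600, 0.760 and 0.607 CPM in MmC-/GDF11- and 1.34, 2.02, 1.86 and 2.57 CPM in MmC+/GDF11-. The senescent libraries were all above the young ones, with a log2 fold change of 1.59 (SE 0.259, adjusted p = 1.48e-04). With GDF11 it stood at 0.598, 0.764, 0.908 and 0.491 CPM against 1.27, 1.963, 2.42 and 2.83 CPM. That difference was 1.62 (SE 0.259, adjusted p = 1.20e-04), also without overlap.

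ALDH1A3, the highest of these 3 per exon length, was 164, 113, 124 and 94.1 CPM in MmC-/GDF11- and 127, 97.2, 102 and 96.5 CPM in MmC+/GDF11-. The ranges overlapped and the log2 fold change of -0.23 (95% interval -0.54 to 0.08) did not pass the test (adjusted p = 0.249). It passed with the replicate number as a block, at -0.21 (adjusted p = 0.0283). With GDF11 the difference was -0.16 (adjusted p = 0.431). ALDH1A3 shares 1715 exonic bases with ALDH1A3-AS1 on the opposite strand. ALDH1A1, a cytosolic retinaldehyde dehydrogenase often used as a stem cell marker, had 0.923, 0.994, 0.590 and 1.50 CPM in MmC-/GDF11- and 0.415, 0.979, 1.06 and 1.05 CPM in MmC+/GDF11-. Its log2 fold change was -0.20 in both comparisons, with intervals of -0.84 to 0.43, and the sign without GDF11 depended on single libraries.

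ALDH2, the mitochondrial enzyme that clears acetaldehyde, was 43.3, 25.9, 22.9 and 20.7 CPM in MmC-/GDF11- and 41.4, 31.4, 31.5 and 25.2 CPM in MmC+/GDF11-. Replicate 1 was the highest library of each group, and the ranges overlapped. The log2 fold change was 0.20 (SE 0.228, adjusted p = 0.503). It passed the test with the replicate number as a block, at 0.23 (adjusted p = 0.0165), where replicates 2, 3 and 4 were higher in senescent cells and replicate 1 was not. With GDF11 the means were 24.5 and 32.6 CPM and the difference was 0.42 (adjusted p = 0.149). With the replicate number as a block it passed the test there as well (adjusted p = 2.75e-04). ALDH2 shares 680 exonic bases with ENSG00000257767 on the same strand.

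ALDH1B1, a mitochondrial relative of ALDH2, was 60.8, 48.3, 44.2 and 38.9 CPM in MmC-/GDF11- and 97.6, 48.3, 46.1 and 35.2 CPM in MmC+/GDF11-. Replicate 1 was the highest library in all 4 groups. In the senescent cells it stood far above the young range, and it did so with GDF11 as well (97.02 CPM against 34.8 to 48.2 CPM in the others). The log2 fold change was 0.24 (95% interval -0.39 to 0.88, adjusted p = 0.572) and became -0.14 without the first MmC+/GDF11- replicate. ALDH3A2, the fatty aldehyde dehydrogenase of the endoplasmic reticulum, was highest in replicate 1 in the senescent groups but not in the young ones. It was between 46.5 and 49.6 CPM in MmC-/GDF11- and at 62.7, 46.1, 46.5 and 45.3 CPM in MmC+/GDF11-. Its log2 fold change of 0.08 (95% interval -0.14 to 0.30, adjusted p = 0.611) became -0.04 without that library. With GDF11 the log2 fold changes of ALDH1B1 and ALDH3A2 were 0.21 and 0.09 (adjusted p = 0.623 and 0.560).

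**Figure D2:**
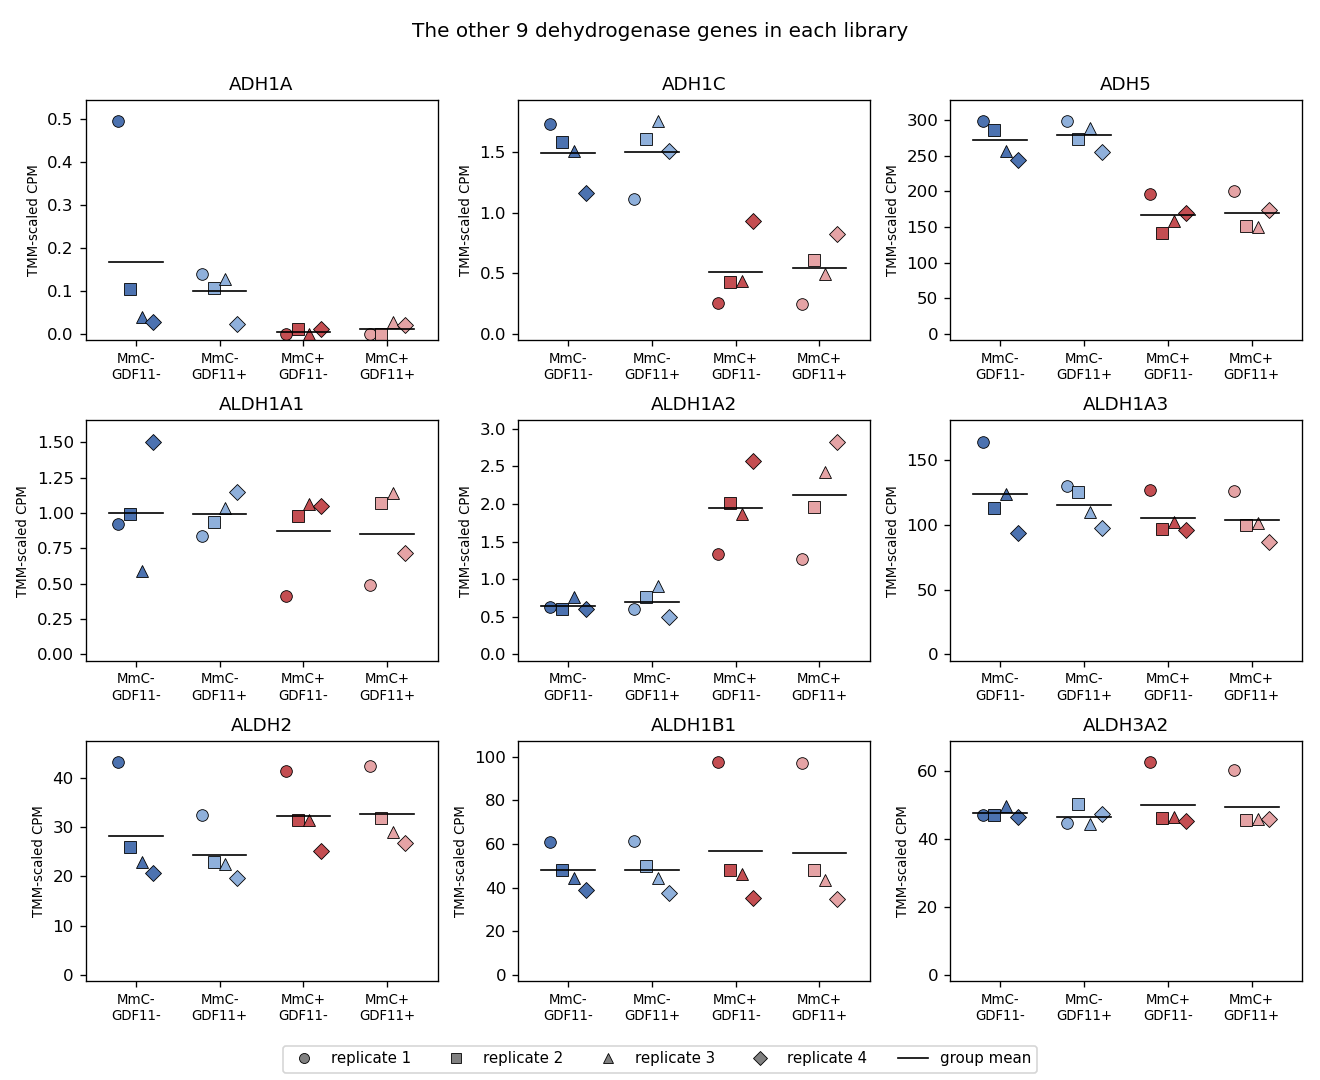
The other 9 genes in each library, as TMM-scaled CPM on linear axes, by treatment group. Symbols mark replicate numbers and lines the group means. ADH1C and ADH5 are lower and ALDH1A2 is higher in all MmC+ libraries, while replicate 1 is the highest library of ALDH1B1 in all groups and of ALDH3A2 in the MmC+ groups.

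Over the 8 genes that could be tested without ADH1B, 1 rose and 2 fell in each comparison of MmC. Among all 19103 genes tested, 45.3% passed the test without GDF11 (22.9% higher, 22.4% lower) and 46.7% with GDF11 (23.4% higher, 23.3% lower). In this fit the share of the 8 genes was not above that of all genes. The same 3 genes were those without overlap between the groups, as were 37.3% of all genes without GDF11 and 41.5% with it. With the replicate number as a block, 5 of the 8 passed without GDF11, as did 57.9% of all genes. The median log2 fold change of the 8 genes was -0.06 without GDF11 and -0.04 with GDF11, beside -0.01 over all genes in both.

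**Figure D3:**
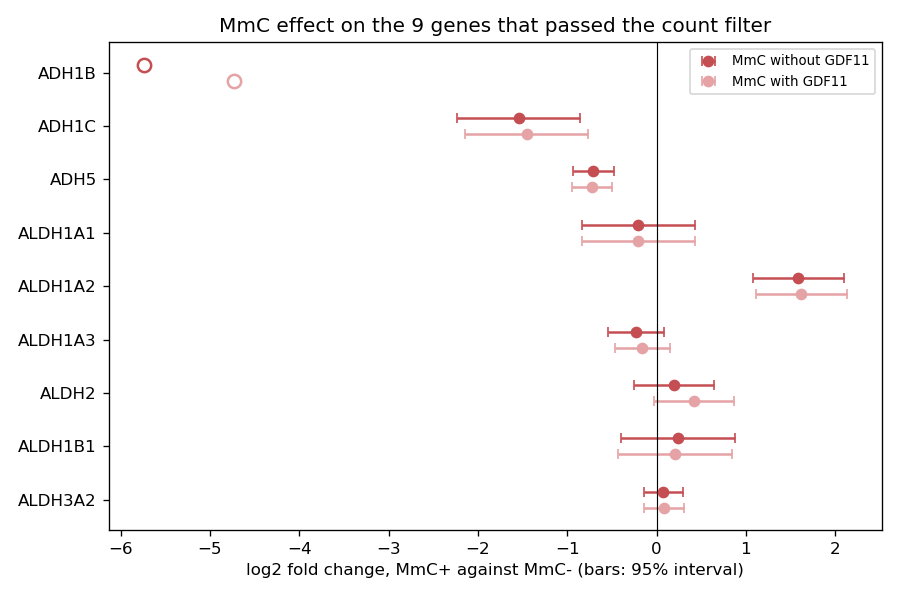
Log2 fold change of MmC+ against MmC- libraries for the 9 genes that passed the count filter, without and with GDF11. Bars are 95% intervals from the fitted standard errors, and ADH1B is shown as an open point because it was selected on this difference. Intervals of ADH1C and ADH5 lie below 0 and those of ALDH1A2 above 0.

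Levels per kilobase of exon place the genes on 1 scale. In MmC-/GDF11- ADH5 led with 55.7 CPM per kilobase (SD 5.14), followed by ALDH1A3 with 23.2 (SD 5.56) and ALDH1B1 with 15.4 (SD 2.99). ADH1B came next with 4.71 (SD 5.29), and it could not be placed apart from ALDH1B1, ALDH3A2 (3.10), ALDH2 (2.90) or ADH1C, whose ranges it overlapped. ADH1C (0.949), ALDH1A1 (0.353), ALDH1A2 (0.0797) and ADH1A (0.0746) followed. Among these, ADH1A overlapped ALDH1A1 and ALDH1A2, and no other pair overlapped. In MmC+/GDF11- ADH5 (34.2), ALDH1A3 (19.8) and ALDH1B1 (18.2) were still the first, and the range of ALDH1B1 overlapped those of ADH5 and ALDH1A3. ADH1B was ninth of the 10, at 0.0875 CPM per kilobase, and overlapped ALDH1A2 (0.239), ALDH1A1 (0.308) and ADH1C (0.326). The exons of ADH1B span 10667 bases, against 4067 in its canonical transcript. Per kilobase of canonical transcripts, ADH1B was at 12.3 in MmC-/GDF11-, rank 5, and at 0.230 in MmC+/GDF11-, rank 9.

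**Figure D4:**
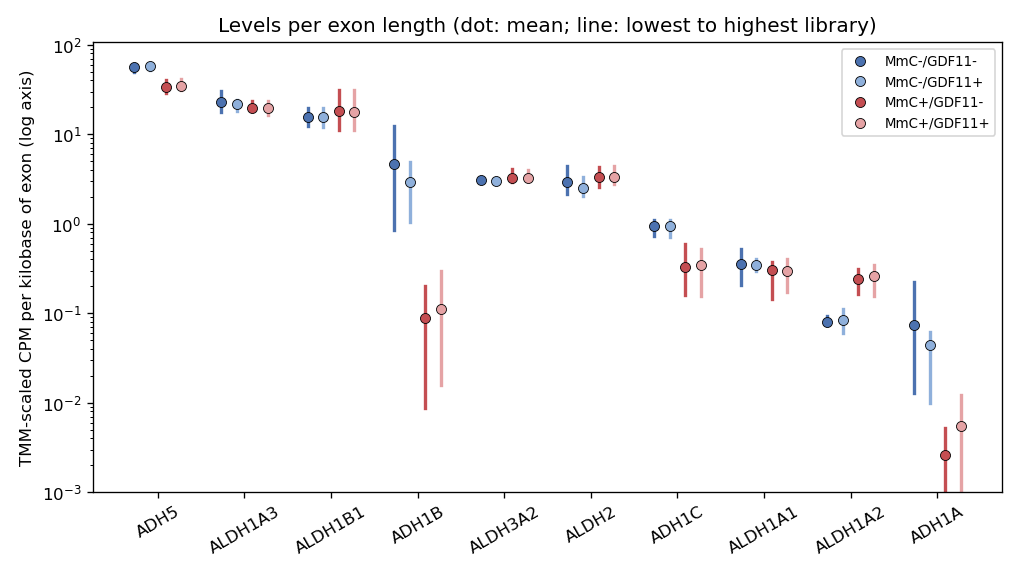
Level of each gene per kilobase of exon on a log axis, by group. Dots are means of 4 libraries and lines run from the lowest to the highest library, ending at the axis where a library had no counts. ADH1B moves from 4.71 to 0.0875 CPM per kilobase between MmC-/GDF11- and MmC+/GDF11-, while ADH5 stays first in every group.

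No difference with GDF11 passed the test. By edgeR, 0 of the 9 tested passed in young cells, in senescent cells or in the interaction of MmC and GDF11, as did 0% of all genes in each of these comparisons. That fit had no replicate block, and 0 of these genes passed under the alternatives, which include the block. The share of all genes called with the block is not given here for GDF11. At an unadjusted p under 0.05, edgeR gave 226, 96 and 172 genes of 19103. limma-voom called 0 genes in each, and DESeq2 called 1 gene in young cells, which is not among these 10. For ADH1B the log2 fold change of GDF11 was -0.69 in young cells (95% interval -2.44 to 1.05) and 0.31 in senescent cells (-1.70 to 2.32). Intervals this wide leave changes of several fold undetectable in that fit, which puts differences between replicate numbers into the error. Log2 ratios between same-numbered libraries were -1.37, -0.03, 0.17 and 0.29 in young cells. In senescent cells they were -0.17, 1.36, -0.35 and 0.56. The sign of the fold change in young cells rested on the replicate at 134 CPM, without which the fold change was 0.48. ADH5 was narrower, with 0.04 (-0.19 to 0.27) in young and 0.02 (-0.20 to 0.25) in senescent cells. ALDH1A2 had 0.09 (-0.43 to 0.61) and 0.13 (-0.35 to 0.61). The difference between the GDF11 effects in senescent and young cells was 1.01 for ADH1B (SE 1.36) and between -0.03 and 0.22 for the other genes.

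Of 66 other genes of retinoid, alcohol and aldehyde metabolism, 52 were tested, of which 43 would have passed the count filter from the young and from the senescent libraries separately. Of these 43, 7 rose and 19 fell without GDF11, which is 16.3% and 44.2%. Of the 16977 genes that met the same condition, 20.7% rose and 23.9% fell. With GDF11, 6 rose and 19 fell (14% and 44.2%), beside 21.3% and 24.9% of those genes. The median log2 fold changes of the 43 genes were -0.34 and -0.25, beside -0.04 over those genes in both. The other 9 genes were kept by the filter through their higher libraries, and are left out of the counts below. The values that follow are from the comparison without GDF11, and all adjusted p-values are from edgeR over all genes.

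Among the enzymes that interconvert retinol and retinaldehyde, 1 of 7 rose and 1 fell. That is 14.3% each, beside the 20.7% and 23.9% above. RDH5, a retinol dehydrogenase of the visual cycle, rose from 7.46 to 21.4 CPM (log2 fold change 1.52, adjusted p = 0.00614). DHRS4, a retinal reductase, fell from 25.2 to 16.3 CPM (-0.63, adjusted p = 0.00232). RDH10, the main retinol dehydrogenase of embryonic retinoic acid synthesis, was picked after its values were seen. It had 97.3, 18.5, 20.9 and 26.1 CPM in MmC-/GDF11- and 195, 74.2, 72.3 and 98.3 CPM in MmC+/GDF11-. Replicate 1 was the highest in both groups, and each senescent library exceeded the young one of the same number. The log2 fold change of 1.44 did not pass the test (adjusted p = 0.0712), but it did with the replicate number as a block, at 1.67 (adjusted p = 1.47e-05). It also passed without the first MmC-/GDF11- replicate, at 2.34 (adjusted p = 0.00510). Without any other single library of these groups it did not pass, at 1.01 to 1.59 (adjusted p from 0.0713 to 0.223). The lowest of these values came without the first MmC+/GDF11- replicate.

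CYP26B1, which degrades retinoic acid, rose from 1.958 to 10.9 CPM (2.48, adjusted p = 5.61e-07) without overlap between groups. CYP26C1, of the same family, had means of 0.103 and 0.0392 CPM and passed the filter through the young libraries alone. Of the 5 tested receptor genes, 1 rose and 3 fell (20% and 60%, beside the same 20.7% and 23.9%). RARG fell from 82.7 to 41.4 CPM (adjusted p = 8.62e-06), RARA from 58.7 to 32.5 CPM (-0.85, adjusted p = 5.34e-05) and RXRA from 85.6 to 63.4 CPM (-0.43, adjusted p = 0.00104). PPARD, a receptor that can bind retinoic acid, rose from 55.6 to 121 CPM (1.12, adjusted p = 3.25e-04).

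Of 8 such genes that respond to retinoic acid in other cells, 2 rose (25%), near the 20.7% of all genes that met the same condition. TGM2, the tissue transglutaminase, rose from 8.73 to 503 CPM (5.85, adjusted p = 2.04e-05), and CYP26B1 is the other. Of 6 tested carrier and uptake genes, 4 passed the filter through the young or the senescent libraries alone. RBP4, the plasma retinol carrier and 1 of the 4, had 2 counts in MmC-/GDF11- and 41 in MmC+/GDF11-, a ratio of 0.0509 for young over senescent (95% exact interval 0.00597 to 0.196, covering counting error only).

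In the remaining ALDH family, 2 of 11 genes rose and 6 fell, beside the 20.7% and 23.9% above. ALDH3A1, the corneal aldehyde dehydrogenase, is the twelfth and passed the filter through the senescent libraries alone. It had 7 counts in the MmC-/GDF11- libraries and 201 in the MmC+/GDF11- libraries, a ratio of young to senescent of 0.0364 (95% exact interval 0.0144 to 0.0763, covering counting error only). ALDH1L1, a folate enzyme, rose from 0.223 to 0.628 CPM (1.50, adjusted p = 7.30e-04), and ALDH18A1, an enzyme of proline synthesis, from 143 to 168 CPM (0.23, adjusted p = 0.0496). The ALDH18A1 call was lost when any single library other than the second MmC-/GDF11- and the fourth MmC+/GDF11- replicates was left out (adjusted p up to 0.114). ALDH4A1 fell from 22.4 to 12.6 CPM (-0.83, adjusted p = 0.00196), ALDH7A1 from 69.7 to 44.3 CPM (-0.65, adjusted p = 5.54e-04) and ALDH16A1 from 23.7 to 15.7 CPM (-0.59, adjusted p = 0.00101).

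Among 13 carbonyl and aldehyde enzymes outside the families, 1 rose and 9 fell, which is 7.69% and 69.2%, beside the same 20.7% and 23.9%. AKR1B1, the aldose reductase, rose from 208 to 675 CPM (1.70, adjusted p = 1.20e-06). AKR1C3, a ketosteroid and retinaldehyde reductase, fell from 90.9 to 30.8 CPM (-1.56, adjusted p = 8.52e-04), CBR3 from 40.5 to 16.7 CPM (-1.28, adjusted p = 6.66e-07) and GSTA4, a glutathione transferase for lipid aldehydes, from 19.9 to 10.4 CPM (-0.94, adjusted p = 1.94e-04).

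**Figure D5:**
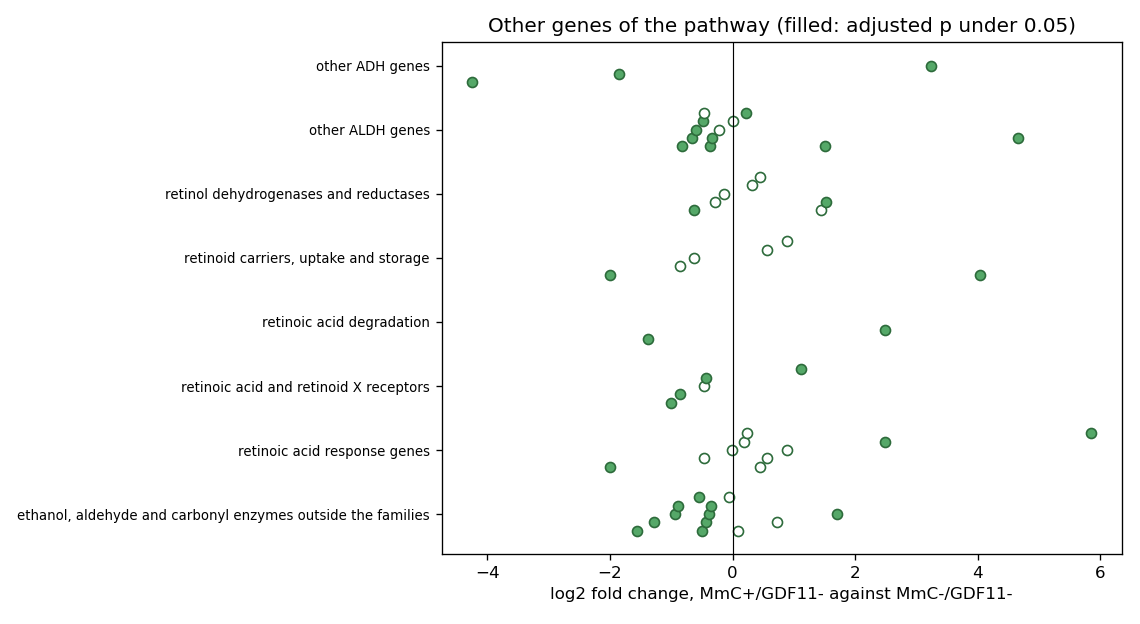
Log2 fold change of MmC+/GDF11- against MmC-/GDF11- for the tested genes of 8 lists, 1 point per gene and 1 line per list. Filled points passed the test, and a gene in 2 lists appears on both lines. TGM2 at 5.85 is the highest and ADH7 at -4.24 the lowest, and ADH7 is 1 of 9 genes that passed the count filter through the young or the senescent libraries alone.

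The genes whose pattern was most like that of ADH1B were named by Pearson's r over the 16 libraries among 10971 protein-coding genes. On log2 CPM they included OLFM2 (r = 0.982), SLC9A9 (0.982), PRXL2C (0.980) and OLFML1 (0.977), and these 4 had lower means in both MmC+ groups. OLFM2 went from 37.3 to 9.70 CPM without GDF11. Of the 10 genes, ADH5 was the most like ADH1B on this scale (r = 0.959), and ALDH1A2 had the lowest r (-0.800). Young and senescent libraries are pooled in these values, so genes that differ between them rank high.

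After the group means were removed, the order changed. IGFBP5, which binds insulin-like growth factors, followed ADH1B most closely (r = 0.983), then XPNPEP2 (0.9496), SLC9A9 (0.925), EFEMP1 (0.923) and GPR176 (0.922). IGFBP5 had 447, 183, 212 and 130 CPM in MmC-/GDF11- and 355, 107, 129 and 512 CPM in MmC+/GDF11-. Like ADH1B, it was highest in young replicate 1, lowest in young replicate 4 and highest in senescent replicate 4, but its group means of 243 and 276 CPM did not fall. SLC9A9, a sodium and proton exchanger, was the only gene among the first 5 of both rankings. ADH5 (r = 0.792) and CYP26B1 (r = 0.823) also followed the replicates of ADH1B, whereas ADH1C (0.236) and ADH1A (0.480) did so less.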

How the data were processed

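RNA-seq of 16 libraries in 4 groups was analysed from the table of raw counts per gene that the authors deposited. They aligned reads to GRCh38/hg38 with HISAT2 2.2.1 and counted them on GENCODE V38 with featureCounts 2.0.1, without normalization. Strand, read-pair and multiple-alignment settings are not given in the sources used here. The 4 libraries of a group are called biological replicates, but nothing says that they were separate cultures, so p-values measure the spread between these libraries.

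Counts were filtered with filterByExpr (minimum count 10, minimum total 15), scaled by TMM and fitted with edgeR 4.0.16 in R 4.3.3 (robust quasi-likelihood, all 16 libraries, 1 mean per group, no block). P-values were adjusted by Benjamini-Hochberg over 19103 genes at 0.05. Standard errors were derived from the log2 fold change and the F statistic. The 95% intervals used them with a normal quantile, so they are somewhat narrower than the F test implies. Log2 CPM for correlations used a prior count of 2. The steps were tested on simulated data. A gene was taken to pass the filter through the young or senescent libraries when at least 4 of those 8 reached 0.116 CPM.

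The 10 genes and all lists were chosen with earlier results of these data known. Named are all 10 genes, up to 3 called genes in each direction from each list with at least 2 called, the 5 genes most like ADH1B on each scale (protein-coding, mean log2 CPM of at least 1), and all genes of the ADH cluster. RDH10 and RXRB were picked after their values were seen. Some genes that meet these rules are not reported here.

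For each pair of same-numbered libraries, deviations from the group means were correlated over genes. The lowest value was 0.113 in the MmC comparison without GDF11 and 0.448 in the GDF11 comparison of senescent cells. In these 2 the numbers were taken to pair libraries. In the MmC comparison with GDF11 it was 0.0293 and in the GDF11 comparison of young cells 0.0982, and there they were not. The highest values were 0.368 and 0.818 in the first 2 comparisons and 0.311 and 0.504 in the other 2. The range of the MmC comparison without GDF11 overlaps both of the latter, so this split rests on a narrow margin. The main fit had no block in any comparison, so pairing enters only through the replicate block, run as an alternative.

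Alternatives were scaling by RLE or upper quartile, a fit with all genes or with a minimum of 10 counts in each library, a fit of the compared groups alone, the replicate block, limma-voom (limma 3.58.1), DESeq2 1.42.0 and each library left out. Leaving out replicate 1 of every group was added after seeing the data. Symbols, positions and exon lengths came from GENCODE v44 on hg38, where 186 identifiers had no match. Promoters came from RefSeq (GRCh38.p14).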

Additional observations from a re-analysis of the deposited data

Results flagged for a closer look

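In 6 of 40 groups of 4 libraries, 1 library lay further from the others than the 95% limit of Dixon's test allows. Chance flags about 1 in 20 groups. Replicate 1 was the library set apart in 5 of the 6. The paper names batch effects from technical issues among its limitations, without saying which libraries they concern. Their part in these values was not tested.

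ADH1B in MmC-/GDF11- replicate 1 was at 133.7 CPM, where the nearest library had 30.3 CPM. In the same library ADH1A was at 0.494 CPM, with 0.104 CPM in the nearest. ALDH1A1 was lowest in MmC+/GDF11- replicate 1, at 0.415 CPM against 0.979 CPM. ALDH3A2 was highest in replicate 1 of MmC+/GDF11- at 62.7 CPM and of MmC+/GDF11+ at 60.5 CPM, against 46.5 and 46.0 CPM in the nearest libraries. ALDH1A2 in MmC-/GDF11- replicate 3 was at 0.760 CPM, with 0.624 CPM in the nearest.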

How the results depend on the processing

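Of 336 values of single genes under an alternative, 316 counted as unchanged, 15 turned sign and 5 newly passed the test. Unchanged values kept their direction and side of the threshold. ADH1B was not tested in the comparisons of MmC. There its 16 values in each comparison counted as unchanged by direction and a move below its pooled SD of 1.64. ADH1C, ADH5 and ALDH1A2 kept direction and side of the threshold under every alternative run, with adjusted p-values of at most 0.0117 in both comparisons of MmC. With the replicate number as a block, 5 of the 8 genes passed in MmC without GDF11 in place of 3, and the share of all genes called went from 45.3% to 57.9%. In MmC with GDF11, where the numbers were not taken to pair libraries, the block gave 4 in place of 3, adding ALDH2 (0.42, adjusted p = 2.75e-04), while that share went from 46.7% to 59%. The block changed no other call of the 10 genes. ALDH2 also passed when replicate 1 was left out of every group, at 0.34 (adjusted p = 0.0247) and 0.43 (adjusted p = 0.00640).

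When libraries were left out, the log2 fold change of ALDH1A1 in MmC without GDF11 ranged from -0.38 to 0.071. ALDH1B1 ranged from -0.14 to 0.42 without and from -0.19 to 0.39 with GDF11, and ALDH3A2 from -0.056 to 0.13 and from -0.043 to 0.14. The GDF11 value of ADH1B ranged from -1.06 to 0.48 in young and from -0.96 to 1.11 in senescent cells. No reversed value passed the test in either direction. Of the 52 tested pathway genes, the 33 called without GDF11 became 27 to 39 under the alternatives, and the 32 with GDF11 became 24 to 39. The 52 include the 9 genes kept by the filter through their higher libraries, whose calls are no more than a description. In the main fit 45.3% and 46.7% of all genes were called. ADH1B could not be fitted with at least 10 counts in every library, since it had 8 in a MmC+/GDF11- library.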

Other observations

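RXRB, 1 of the 3 retinoid X receptors, had group means of only 0.00511 to 0.0220 CPM, beside 61.2 to 85.6 CPM for RXRA. All of its exonic words of 31 bases (100%) also occur on the 261 alternate contigs of the hg38 assembly, against 1.21% for ADH1B and 16.4% for ADH5. For words of 100 bases the shares were 100%, 0% and 0.924%. Which contigs the authors' index held is not given in the sources used here, and the part of this in the RXRB counts was not tested.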
